A study of Mus musculus with 3 samples.

Results

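Cytotoxic lymphocytes kill infected or transformed cells mainly by emptying granules of perforin and granzymes onto them. Perforin makes pores, and granzymes are serine proteases that enter the target and start its death. The same cells can also engage the death receptor Fas through Fas ligand and secrete interferon gamma, and in NK and CD8 T cells much of this program is turned on by the paired T-box transcription factors T-bet and Eomesodermin.

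The 10 genes described here, of 31053 features in the matrices, encode this machinery. They are the granzymes *Gzma*, *Gzmb* and *Gzmk*, perforin (*Prf1*), the granule membrane protein *Nkg7*, the lysosomal cysteine protease cathepsin W (*Ctsw*), Fas ligand (*Fasl*), interferon gamma (*Ifng*), T-bet (*Tbx21*) and *Eomes*. They were chosen by symbol, with earlier results of these data known, and none of them entered the definition of a cell class. Levels were compared in CD8 T cells, CD4 T cells and natural killer (NK) cells of a mouse glioblastoma model. Brain tumor-initiating cells from a single NPcis line, which carries *Nf1* and *Trp53* mutations, had been implanted in the brains of female C57BL/6 mice aged 6 to 8 weeks. Mice received niacin intraperitoneally at 100 mg/kg daily from day 7, or saline as the vehicle, and tissue was taken 4 weeks after implantation. All groups carried the tumor, so no tumor-free brain enters the comparisons. Percoll-enriched, SYTOX Red-negative live cells were sequenced from the 3′ end of the transcript, giving 1 vehicle library (replicate 2 in the labels) and 2 niacin libraries (replicates 1 and 2). Each library is a pool of 4 tissues by its label, although the labels also speak of 5 vehicle and 10 niacin mice.

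The libraries held 2145 to 2532 barcodes and 8301228 to 10359526 unique molecular identifiers (UMIs, each standing for 1 captured RNA molecule). Of 5571 distinct barcodes, 924 were listed in more than 1 library and 452 in all 3. A shared barcode was kept only where it had the most UMIs, and the copies left out had medians of 641.5 to 669.5 UMIs. Kept cells numbered 1324 for vehicle and 1421 and 1599 for the niacin pools. The vehicle library stood apart, with a median of 2982.5 UMIs per cell against 5063 and 5212, and with a median of 8.85% mitochondrial UMIs against 3.08% and 3.29%.

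Lineage marker UMIs placed 169 cells among CD8 T cells (46, 64 and 59 in the vehicle library, niacin replicate 1 and niacin replicate 2), 155 among CD4 T cells (68, 40 and 47) and 91 among NK cells (73, 8 and 10). The class rule did not use *Trac*, the T cell receptor alpha chain, which reached 560 to 668 UMIs per 1000000 UMIs of the class (CPM) in CD8 T cells and 640 to 773 CPM in CD4 T cells, against 0 to 17.8 CPM in NK cells. *Tyrobp*, an adaptor of NK and myeloid receptors, reached 1009 to 3041 CPM in NK cells against 18.4 to 61.3 CPM in CD8 T cells. The CD40 ligand gene *Cd40lg* was above 67 CPM in CD4 T cells of every library against 0 to 16.1 CPM in CD8 T cells. The 6 T cell markers outside the rule still summed to 1223 to 1690 CPM in NK cells, much of it *Trbc1*, against 3208 to 4804 CPM in CD8 T cells, and the 7 NK markers summed to 1026 to 1207 CPM in CD8 T cells against 6171 to 10315 CPM in NK cells. Microglia markers gave 144 to 268 CPM over the 3 classes. Neutrophil markers reached 504 and 650 CPM in NK cells of the vehicle library and niacin replicate 1, against 84.3 to 337 CPM elsewhere in these classes. Choroid plexus markers reached 4638 CPM in CD4 T cells of niacin replicate 2, against 32.4 to 535 CPM elsewhere. The part of such foreign RNA in the results was not tested. The NK classes of the niacin libraries are thin, with 26161 and 56228 UMIs against 170485 in the vehicle library, and their values carry wide counting intervals.

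*Gzma*, a granzyme with trypsin-like specificity, was by UMI count the leading member in NK cells. The vehicle library gave 7455 CPM there (95% Poisson interval 7051 to 7877), and the niacin pools gave 4855 (4047 to 5776) in replicate 1 and 4695 (4146 to 5297) in replicate 2. In niacin replicate 2, 1 NK cell held 124 of the 264 UMIs, and without it the level was 2920 CPM (2456 to 3445). CD8 T cells held 1330 CPM (1194 to 1478) in the vehicle library, and far less in the niacin pools, 60.2 (36.8 to 93.0) in replicate 1 and 294 (245 to 349) in replicate 2. In niacin replicate 2, 1 CD8 T cell held 78 of the 128 UMIs, and without it the level was 117 CPM (86.7 to 154). CD4 T cells gave 381 CPM (320 to 449) in the vehicle library and no UMI in either niacin library, which allows up to 16 and 10.7 CPM at 3 counts. The order NK, CD8, CD4 held in all 3 libraries, and every NK value lay above every T cell value. All Poisson and binomial intervals given here cover counting error only.

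*Gzmk*, another trypsin-like granzyme, ran the other way. CD8 T cells gave 53.7, 51.2 and 78.0 CPM (14, 17 and 34 UMIs) in the vehicle library, niacin replicate 1 and niacin replicate 2, and CD4 T cells gave 29.7, 10.6 and 17.8 CPM (11, 2 and 5 UMIs). No *Gzmk* UMI was found in the 91 NK cells, which allows up to 17.6, 115 and 53.4 CPM at 3 counts per library. Summed over libraries, NK cells were at least 5.33-fold lower than CD8 T cells, with NK cells set at 3 UMIs over the group.

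The 2 genes are neighbors on the minus strand of chromosome 13. In mm10, *Gzma* (protein coding) lies at chr13:113093825-113100981 and *Gzmk* (protein coding) at chr13:113171608-113225908, 70.6 kb apart. *Gzmb* lies on chromosome 14 (minus strand, chr14:56258838-56262260) and *Prf1* on chromosome 10 (plus strand, chr10:61297833-61304680). The 250 bases just before the RefSeq start of these 4 genes are shown because the neighbors *Gzma* and *Gzmk* had opposite levels in NK and CD8 T cells while *Gzmb* and *Prf1* were higher in NK cells too. The windows (GRCm38.p6) are chr13:113100982-113101231 for *Gzma*, chr13:113180966-113181215 for *Gzmk*, chr14:56262335-56262584 for *Gzmb* and chr10:61297586-61297835 for *Prf1*, each written 5′ to 3′ on the strand of its gene. Capitals mark the T-box letters GGTGTGA and the Runx letters TGTGGT, each searched on both strands (reverse complements TCACACC and ACCACA), which do not overlap here.
Gzma: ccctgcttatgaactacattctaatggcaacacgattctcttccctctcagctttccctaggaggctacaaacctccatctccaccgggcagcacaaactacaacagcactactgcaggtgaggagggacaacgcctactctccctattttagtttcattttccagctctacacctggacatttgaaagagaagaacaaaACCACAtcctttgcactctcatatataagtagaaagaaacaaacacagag
Gzmk: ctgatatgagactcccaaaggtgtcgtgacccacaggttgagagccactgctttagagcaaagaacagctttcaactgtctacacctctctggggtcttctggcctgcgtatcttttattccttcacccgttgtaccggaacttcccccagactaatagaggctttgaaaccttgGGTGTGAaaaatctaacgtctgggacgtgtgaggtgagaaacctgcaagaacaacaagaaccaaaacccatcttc
Gzmb: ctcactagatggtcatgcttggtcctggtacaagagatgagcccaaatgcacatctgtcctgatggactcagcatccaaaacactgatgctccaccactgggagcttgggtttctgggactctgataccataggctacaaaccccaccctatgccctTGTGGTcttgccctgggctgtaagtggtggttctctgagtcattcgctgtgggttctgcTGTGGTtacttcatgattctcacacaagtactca
Prf1: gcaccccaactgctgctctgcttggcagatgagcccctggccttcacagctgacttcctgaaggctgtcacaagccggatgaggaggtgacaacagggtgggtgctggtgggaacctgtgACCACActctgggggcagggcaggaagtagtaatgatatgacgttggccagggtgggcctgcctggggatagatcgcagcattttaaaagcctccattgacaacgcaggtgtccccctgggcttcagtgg
*Gzmk* held the T-box letters 75 to 69 bases before its RefSeq start and no Runx letters. That start and its window lie inside the GENCODE span of *Gzmk* given above, whose 5′ end on the minus strand is at 113225908. *Gzma* held the Runx letters once (bases 50 to 45), *Prf1* once (bases 130 to 125) and *Gzmb* at bases 93 to 88 and 34 to 29, and these 3 windows held no T-box letters. *Nkg7* held both kinds, the T-box letters at bases 13 to 7 and the Runx letters at bases 83 to 78. Across the 9 members with a promoter in the reference table, all but *Ctsw*, 2 held the T-box and 4 the Runx letters. The same letters occur in 3.33% and 14% of all 32851 promoter windows of this length. A match describes the letters only and is not a binding site.

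*Gzmb*, the granzyme that cuts after aspartate and can process caspases, varied strongly across libraries. NK cells held 1859 CPM (1660 to 2076) in the vehicle library, and the niacin pools gave 191 (62.1 to 446), from 5 UMIs, in replicate 1 and 925 (691 to 1213) in replicate 2. CD8 T cells held 855 CPM (746 to 975) in the vehicle library against 60.2 (36.8 to 93.0) and 64.3 (42.7 to 92.9) in the niacin pools. CD4 T cells gave 521 CPM (450.0 to 600) in the vehicle library and no UMI in niacin replicate 1 or 2. Within each library NK cells were highest, but the vehicle CD8 and CD4 values exceeded the NK value of niacin replicate 1. *Gzmb* has close relatives among the granzymes *Gzmc* to *Gzmg*, which held 38 UMIs for *Gzmc*, 1 for *Gzmf* and 0 for the others in the 3 classes. Reads shared with them were not measured, so its counts are uncertain in that respect.

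*Prf1* separated NK cells from both T cell classes with no overlap. NK cells gave 1091, 535 and 729 CPM (186, 14 and 41 UMIs) in the vehicle library, niacin replicate 1 and niacin replicate 2. CD8 T cells gave 107, 90.3 and 73.4 CPM (28, 30 and 32 UMIs), and 21 of the 28 vehicle UMIs came from 1 cell. CD4 T cells gave 29.7, 10.6 and 3.56 CPM (11, 2 and 1 UMIs). The lowest NK value was thus above every CD8 value, and the lowest CD8 value was above every CD4 value. Without its highest cell, vehicle CD8 T cells held 7 UMIs of *Prf1*, or 27.5 CPM (11.1 to 56.6), which is no longer above the vehicle CD4 value.

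**Figure D1:**
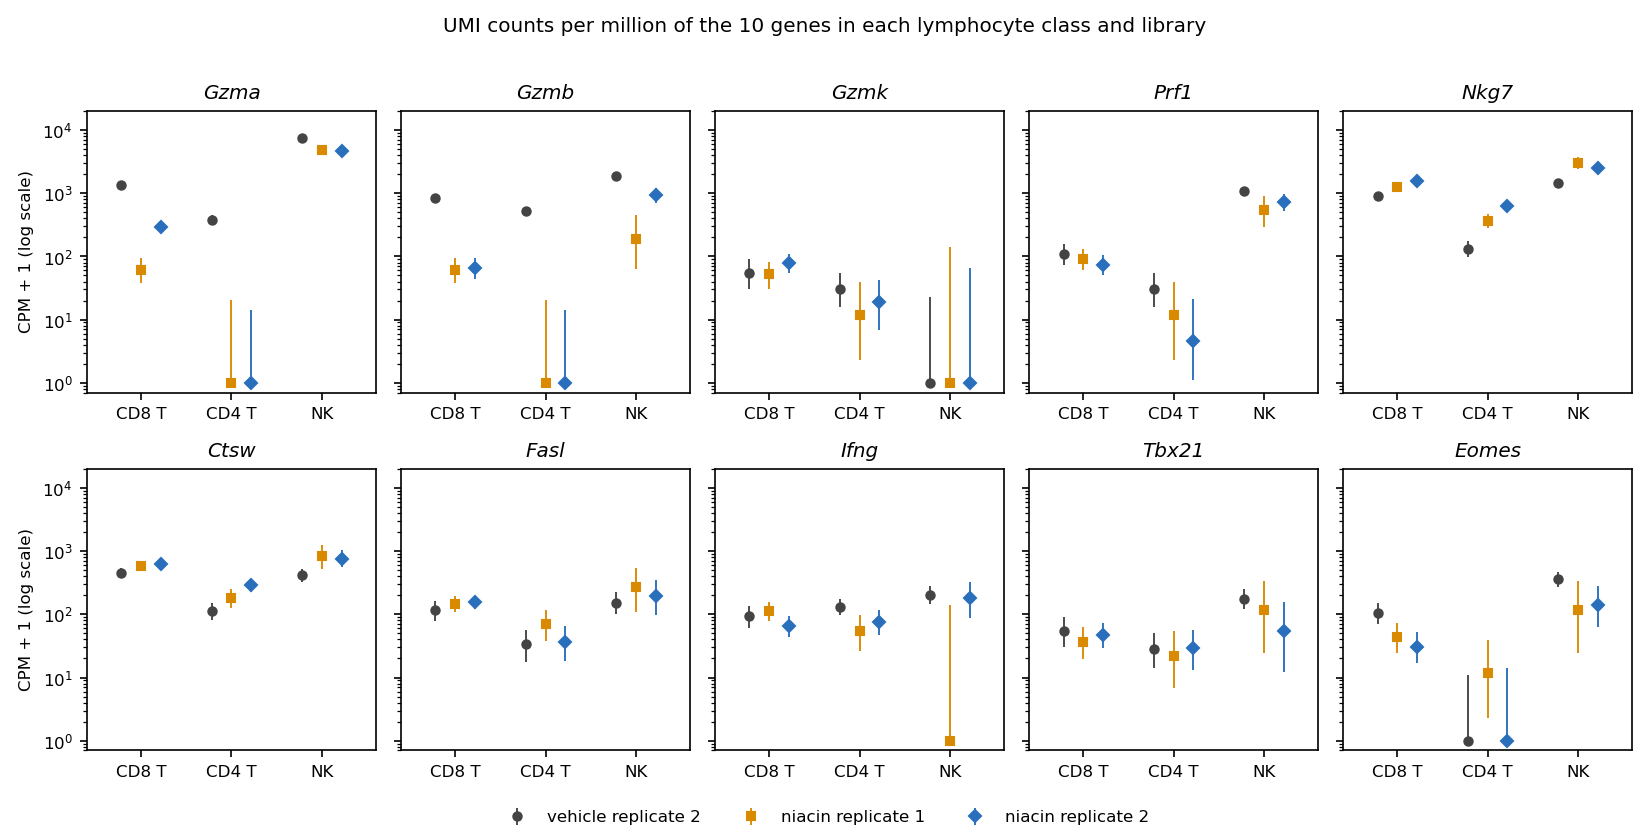
Level of each member as CPM + 1 (log axis, so that 0 is drawn at 1) in CD8 T, CD4 T and NK cells, 1 point per library with the exact 95% Poisson interval. *Gzma* and *Prf1* of NK cells lie above all T cell points, *Gzmk* of NK cells is at 0 in all 3 libraries, and *Gzma* and *Gzmb* of CD4 T cells are at 0 in both niacin libraries.

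*Nkg7*, which takes part in granule release, was abundant in NK and CD8 T cells. It reached 1466, 3058 and 2525 CPM in NK cells and 912, 1240 and 1560 CPM in CD8 T cells of the vehicle library, niacin replicate 1 and niacin replicate 2. CD4 T cells held 130 CPM (95.5 to 172) in the vehicle library against 367 (286 to 464) and 627 (538 to 727) in the niacin pools, although 69 of the 176 UMIs of niacin replicate 2 came from 1 cell. NK and CD8 levels overlapped across libraries, whereas the highest CD4 value stayed below the lowest CD8 value. *Ctsw*, restricted mostly to NK and CD8 T cells, was lowest in CD4 T cells too, with 416, 841 and 765 CPM in NK cells, 448, 590.0 and 626 CPM in CD8 T cells and 111, 181 and 289 CPM in CD4 T cells. NK and CD8 values of *Ctsw* interleaved.

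*Fasl* and *Ifng*, the secreted or surface-borne signals, were low. *Fasl* gave 153, 268 and 196 CPM in NK cells, 115, 144 and 156 CPM in CD8 T cells and 32.4, 69.1 and 35.6 CPM in CD4 T cells, so that CD4 values lay below all others while NK and CD8 values overlapped. *Ifng* gave 205, 0 and 178 CPM in NK cells, 92.0, 111 and 64.3 CPM in CD8 T cells and 132, 53.2 and 74.8 CPM in CD4 T cells. Its 3 classes overlapped, and 24 of the 49 *Ifng* UMIs of vehicle CD4 T cells came from 1 cell.

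Among the transcription factors, *Eomes* was nearly absent from CD4 T cells, with 0, 2 and 0 UMIs. Its levels were 358, 115 and 142 CPM (61, 3 and 8 UMIs) in NK cells and 103, 42.1 and 29.8 CPM (27, 14 and 13 UMIs) in CD8 T cells. Every NK value lay above every CD8 value, but the lowest NK value and the highest CD8 value did not differ beyond counting error. Of the 27 vehicle CD8 UMIs, 14 came from 1 cell. Without the highest cell of each, these 2 *Eomes* values were 54.4 CPM (1.38 to 303), from 1 UMI, and 52.1 CPM (27.7 to 89.1). *Tbx21* gave 176, 115 and 53.4 CPM (30, 3 and 3 UMIs) in NK cells, 53.7, 36.1 and 45.9 CPM in CD8 T cells and 27.0, 21.3 and 28.5 CPM in CD4 T cells. The lowest NK value of *Tbx21* lay within counting error of the CD8 values.

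Summed over the 10 genes, members took 1.32%, 0.998% and 1.02% of all UMIs in NK cells of the vehicle library, niacin replicate 1 and niacin replicate 2. The sums were 4071, 2426 and 2992 CPM in CD8 T cells and 1393, 723 and 1076 CPM in CD4 T cells, against 113, 9.83 and 6.53 CPM in microglia of the same libraries.

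To test the classes against each other, UMIs were summed per class and library, and the 9 sums were fitted together with library as a term. The 3 contrasts share these sums, so their results are not independent. The library term takes up level differences between pools that the classes of a pool have in common. The p-values therefore rest on how far the class differences vary among the 3 pools, with vehicle and niacin pools treated as replicates. All 10 members passed the count filter and were among 4556 genes tested. Since the members were chosen with earlier results of these data known, the all-gene shares and medians beside them are a description only. Against CD8 T cells, NK cells had 4 members higher, beside 3.78% of all genes called higher, and 1 lower, beside 6.32% called lower. The 4 were *Prf1* (log2 fold change 2.90 ± 0.25 (SE), adjusted p = 1.14e-13), *Gzma* (3.89 ± 0.39, adjusted p = 7.01e-12), *Gzmb* (1.89 ± 0.38, adjusted p = 0.000234) and *Eomes* (1.69 ± 0.38, adjusted p = 0.000942) by the quasi-likelihood test of edgeR, Benjamini-Hochberg adjusted. *Gzmk* was lower (adjusted p = 0.00027 in the same edgeR test), and its size is given by the bound above. The other 5 did not pass: *Nkg7* (0.65, adjusted p = 0.0593), *Tbx21* (1.19, 0.063), *Ifng* (0.56, 0.425), *Fasl* (0.29, 0.689) and *Ctsw* (-0.04, 0.957). The median over the 10 members was 0.92, against -0.07 over all genes tested.

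*Prf1* and *Gzmk* held this call under all 14 alternatives tried, with adjusted p up to 0.000122 and 0.0489. *Gzma*, *Gzmb* and *Eomes* did not pass when library was dropped as a term (log2 fold changes of 3.16, 1.57 and 1.86, adjusted p = 0.146, 0.574 and 0.0675 in edgeR) or in DESeq2 (4.57, 2.34 and 1.67, adjusted p = 0.103, 0.715 and 0.0545). Single libraries mattered as well. Without niacin replicate 2, *Gzmb* fell to 0.93 on the log2 scale (adjusted p = 0.0655) and *Tbx21* passed (1.51, adjusted p = 0.0452). Without the vehicle library, *Eomes* did not pass (1.71, adjusted p = 0.189), *Nkg7* did (0.73, adjusted p = 0.0201), *Gzma* stood at 4.60, *Gzmb* at 3.02 and *Ctsw* at 0.12. Leaving out niacin replicate 1 set *Gzma* at 3.09 with its call kept. The within-library log2 ratios of *Gzma* were 2.49 for the vehicle pool and 6.33 and 4.0 for niacin replicates 1 and 2, so it was higher in NK cells in 3 of 3 libraries by very different amounts.

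Against CD4 T cells, NK cells had 8 members higher, beside 4.85% of all genes, and 0 lower, beside 5.82% (edgeR's quasi-likelihood test, Benjamini-Hochberg adjusted p below 0.05). The differences were 6.22 for *Gzma* (adjusted p = 6.26e-17), 5.53 for *Prf1* (2.03e-20), 3.05 for *Gzmb* (2.27e-08), 2.6 for *Nkg7* (2.01e-12), 2.13 for *Tbx21* (0.000553), 2.03 for *Fasl* (3.33e-05) and 1.61 for *Ctsw* (1.2e-06) on the log2 scale. *Eomes* also passed (adjusted p = 4.38e-12), with a ratio of summed CPM of 119 (counting interval 31.9 to 1005) because CD4 T cells held 2 UMIs in all. *Ifng* did not pass (0.68, adjusted p = 0.285). *Gzmk*, with 0 UMIs in NK cells and 18 in CD4 T cells, was at least 1.81-fold lower by counts and missed the threshold (adjusted p = 0.0513). It passed at an adjusted p of 0.0351 to 0.0492 under 4 alternatives of the gene filter, barcode rule and class rules. Before adjustment *Gzmk* was the 1 member lower at the 0.05 threshold in edgeR. DESeq2 called 8 members higher and 0 lower, beside 146 and 174 of its 5861 genes. The member median was 2.37 against -0.07 over all genes.

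Without the vehicle library, CD4 T cells held no *Gzma* or *Gzmb* UMI, so those fitted values are no measure of size. *Tbx21* then did not pass (1.32, adjusted p = 0.509), *Prf1* stood at 6.38 and *Eomes* at 4.63. Without niacin replicate 1 *Gzma* stood at 5.52 and *Eomes* had no CD4 UMI, and without niacin replicate 2 *Gzmb* stood at 2.01, with calls kept in each case. With no library term, *Gzmb* did not pass (2.49, adjusted p = 0.333 in edgeR).

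CD8 T cells against CD4 T cells had 7 members higher, beside 1.91% of all genes, and 0 lower, beside 1.89%, by the same edgeR test and adjustment. They were *Prf1* (2.64, adjusted p = 1.3e-06), *Gzma* (2.33, 8.63e-05), *Nkg7* (1.95, 1.33e-08), *Fasl* (1.74, 2.55e-05), *Gzmk* (1.66, 0.0155), *Ctsw* (1.65, 7.38e-08) and *Eomes*, whose ratio of summed CPM was 22 (counting interval 5.81 to 187, adjusted p = 1.34e-06). *Gzmb* (1.17, adjusted p = 0.0707), *Tbx21* (0.95, 0.335) and *Ifng* (0.11, 0.948) did not pass. All 10 fitted values were positive, and DESeq2 called 5 members higher and 0 lower, beside 34 and 25 of its 7218 genes. The member median was 1.70 against 0.01 over all genes.

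Here the calls of *Prf1* and *Fasl* held under all 14 alternatives, with adjusted p up to 0.011 and 0.0254. *Gzma* did not pass without a library term (2.17, adjusted p = 0.85 in edgeR) or in DESeq2 (4.28, adjusted p = 0.633). *Gzmk*, from 65 and 18 UMIs, lost its call in DESeq2 (1.7, adjusted p = 0.926), without a library term (1.66, adjusted p = 0.182), without niacin replicate 1 (1.54, adjusted p = 0.134) and without niacin replicate 2 (1.36, adjusted p = 0.505). *Nkg7* and *Ctsw* did not pass without a library term (1.79 and 1.59, adjusted p = 0.124 and 0.0703 in edgeR). Without the vehicle library *Eomes* did not pass (2.92, adjusted p = 0.0903), *Prf1* stood at 3.60 and *Gzmb* passed (adjusted p = 4.05e-05) against CD4 sums with no *Gzmb* UMI. *Gzmb* also passed without niacin replicate 2 (1.08, adjusted p = 0.0411) and with no filter on low counts (1.18, adjusted p = 0.00312). *Ifng* stood at -0.29 without niacin replicate 1, and *Eomes* then had no CD4 UMI.

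**Figure D2:**
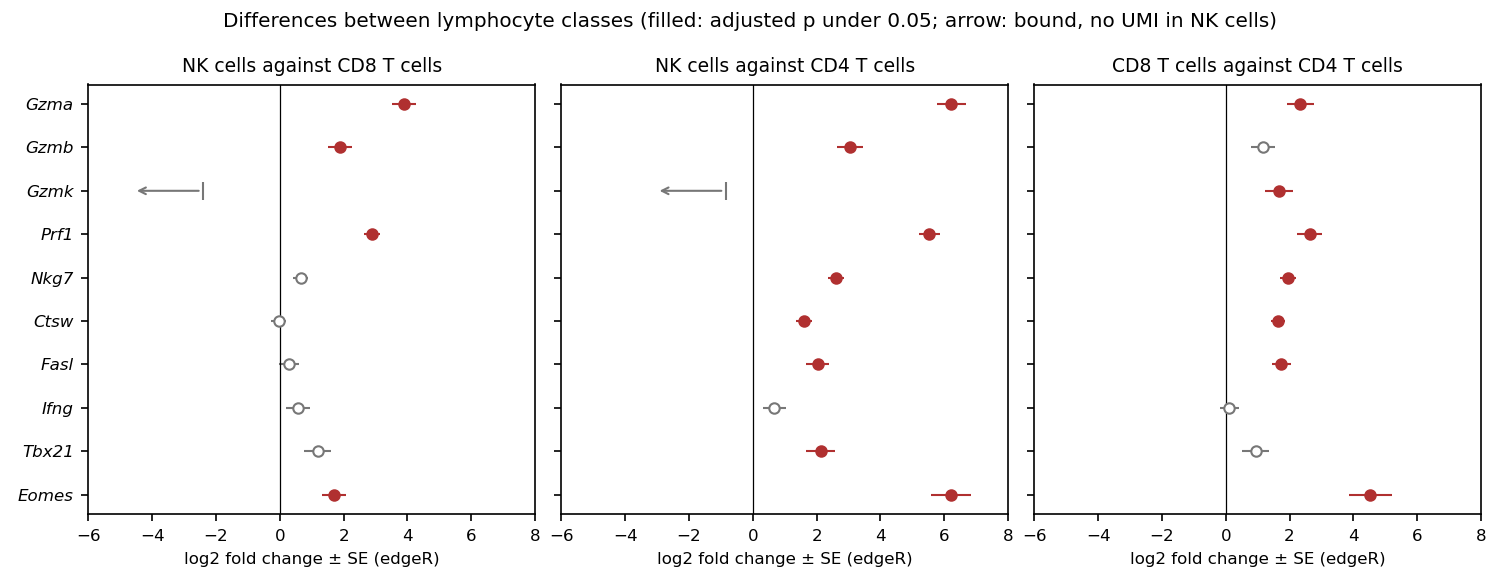
Log2 fold change with its standard error for each member in the 3 class contrasts (x axis), filled where the adjusted p of edgeR's quasi-likelihood test is below 0.05. Arrows mark *Gzmk* in NK cells, which held no UMI, at the bound of at least 5.33-fold against CD8 T cells and at least 1.81-fold against CD4 T cells. *Gzma* and *Prf1* lie farthest right in the NK contrasts, together with *Eomes* against CD4 T cells.

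Shares of positive cells separated frequent low expression from a few very high cells. Each cell was thinned to 1000 UMIs because NK cells were shallower (medians of 1480, 1826 and 6556.5 UMIs in the vehicle library, niacin replicate 1 and niacin replicate 2) than CD8 T cells (5623.5, 6069.5 and 7225). Thinned NK cells were *Gzma*-positive in 83.6% (exact 95% binomial interval 71.9 to 91.8) of 61 cells, 57.1% (18.4 to 90.1) of 7 cells and 60% (26.2 to 87.8) of 10 cells. Thinned CD8 T cells were *Gzma*-positive in 29.5%, 7.94% and 5.08% of 44, 63 and 59 cells. The unthinned shares were 87.7%, 62.5% and 70% in NK cells and 47.8%, 10.9% and 13.6% in CD8 T cells. Microglia, which should lack the gene, were positive in 12.2%, 0.324% and 0% of thinned cells and in 21.3%, 1.36% and 0.498% of unthinned cells (medians of 2476, 3681.5 and 3837 UMIs). The 0 of 714 thinned microglia of niacin replicate 2 has an upper 95% limit of 0.515%.

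CD4 T cells of the vehicle library were *Gzma*-positive in 10.4% of 67 thinned cells, against 12.2% of microglia of that library. The order changed with the depth of thinning, with 4.41% against 3.44% at 500 UMIs and 14.8% against 9.70% at 2000 UMIs, and unthinned shares were 17.6% against 21.3%, so neither expression nor its absence is read from this share. Their summed *Gzma* level was not spread over cells: 1 cell held 105 of the 141 UMIs. For *Gzmb* the thinned share was 17.9% (9.61 to 29.2) in vehicle CD4 T cells against 3.27% (1.42 to 6.33) in vehicle microglia, and the *Gzma* to *Gzmb* counts were 141 to 193 in CD4 T cells and 76 to 34 in microglia. The highest CD4 T cell held 81 of the 193 *Gzmb* UMIs. In the niacin libraries 0 of 38 and 0 of 46 thinned CD4 T cells had *Gzma* or *Gzmb*, with upper limits of 9.25% and 7.71%.

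*Prf1* was found in 62.3%, 42.9% and 20% of thinned NK cells (unthinned 65.8%, 75% and 70%) and in 2.27%, 11.1% and 10.2% of thinned CD8 T cells, against at most 1.63% of microglia. *Gzmb* was found in 49.2%, 42.9% and 30% of thinned NK cells and in 34.1%, 3.17% and 6.78% of thinned CD8 T cells (unthinned 58.9%, 37.5% and 50% of NK and 56.5%, 14.1% and 16.9% of CD8 T cells). *Nkg7* was the most frequent member in thinned CD8 T cells, at 36.4%, 60.3% and 67.8%, with *Ctsw* next in both niacin libraries at 47.6% and 44.1%. Thinned CD4 T cells had *Nkg7* in 8.96%, 21.1% and 30.4% and *Ctsw* in 11.9%, 18.4% and 32.6%, against at most 0.816% of microglia for either gene.

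**Figure D3:**
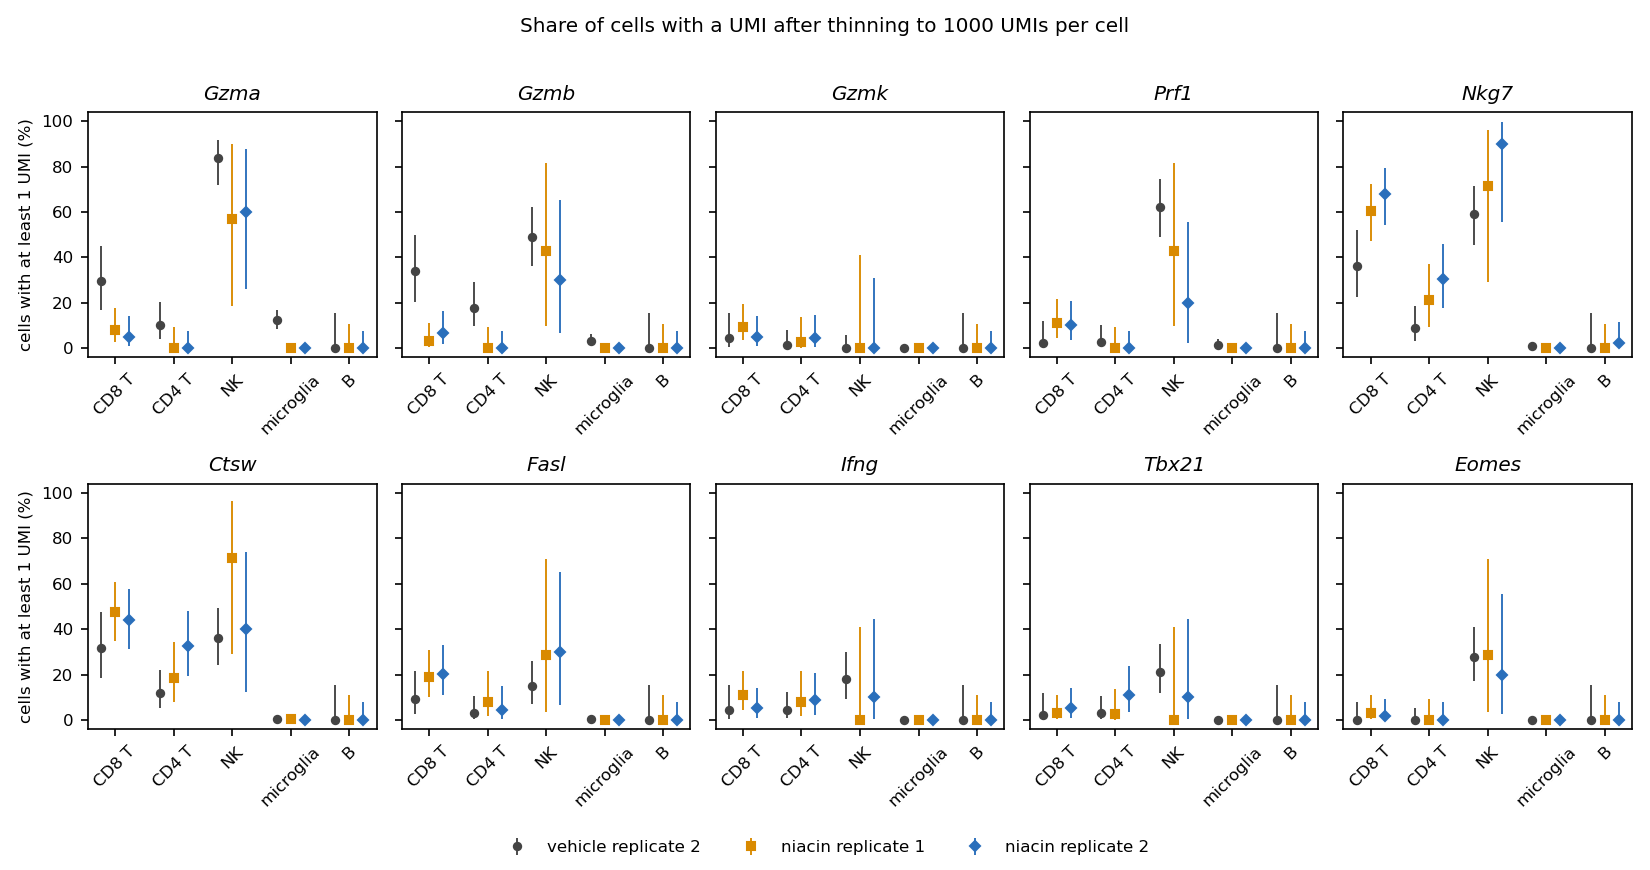
Share of cells with at least 1 UMI of each member after thinning to 1000 UMIs, by class and library, with exact 95% binomial intervals. NK shares of *Gzma* are the highest in the vehicle library (83.6%), and *Nkg7* in CD4 T cells is at 8.96%, 21.1% and 30.4%, against at most 0.816% in microglia.

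Most *Prf1*-positive NK cells also held *Gzma*. Over the 3 libraries 76 of 91 NK cells had *Gzma*, 61 had *Prf1* and 57 had both, which is 93.4% of the *Prf1*-positive cells. *Gzmb* was found in 51 NK cells, and 46 of them (90.2%) also had *Gzma*. In CD8 T cells 37 had *Gzma*, 45 had *Gzmb* and 15 had both, while *Nkg7* and *Ctsw* were each found in 143 of 169 cells and together in 126. *Tbx21* was found in 35 and *Eomes* in 29 CD8 T cells, with 5 holding both. These cell counts are unthinned, and pairs of low genes are missed more often in shallow cells.

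The median cell held 4, 3 and 4 of the 10 members among CD8 T cells of the vehicle library, niacin replicate 1 and niacin replicate 2, 1, 1 and 2 among CD4 T cells and 4, 4.5 and 6 among NK cells. At least 1 member was found in 69 of 73, 8 of 8 and 10 of 10 NK cells and in 44 of 68, 21 of 40 and 31 of 47 CD4 T cells.

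Niacin and vehicle were set side by side within each class without a test, since 1 vehicle library gives no spread between vehicle libraries. In CD8 T cells 3 of 10 members were at least 2-fold lower in both niacin libraries, beside 7.21% of 5827 genes with at least 20 UMIs. The log2 differences from the vehicle library were -4.47 and -2.18 for *Gzma*, -3.83 and -3.73 for *Gzmb* and -1.30 and -1.79 for *Eomes* in niacin replicates 1 and 2. No member was at least 2-fold higher in both, beside 3.95% of genes, and 1 was when T cells needed at least 2 CD3 UMIs. *Prf1* differed by -0.25 and -0.55, but this rests on the 1 vehicle cell with 21 of its 28 UMIs. Without the highest cell of each gene and library, a comparison added after the data were seen, CD8 *Prf1* was 27.5 CPM in the vehicle library against 80.0 and 63.9 CPM in niacin replicates 1 and 2, or higher by 1.54 and 1.22 on the log2 scale. The thinned shares of 2.27% against 11.1% and 10.2% had overlapping intervals (0.0575 to 12, 4.59 to 21.6 and 3.82 to 20.8). *Eomes*, with 14 of its 27 vehicle UMIs in 1 cell, then differed by -0.63 and -1.16 and was no longer 2-fold lower in both. *Gzma* (-4.94 and -3.15) and *Gzmb* (-3.70 and -3.59) stayed lower. With every cell, *Gzmk* (-0.07 and 0.54), *Nkg7* (0.44 and 0.77), *Ctsw* (0.40 and 0.48) and *Fasl* (0.33 and 0.44) stayed within 2-fold, as did *Ifng* and *Tbx21*.

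CD4 T cells had 2 of 7 counted members lower in both niacin libraries, beside 9.37% of genes, and 1 higher, beside 2.69%. *Gzma* and *Gzmb* had no UMI in either niacin library, which puts the log2 differences at -4.58 and -5.15 or lower for *Gzma* and at -5.03 and -5.61 or lower for *Gzmb* against a floor of 3 counts per library. Without the highest cell of each gene and library, these bounds were -2.62 and -3.16 for *Gzma* and -4.27 and -4.82 for *Gzmb*. *Nkg7* was higher by 1.5 and 2.27 on the log2 scale. In NK cells 2 of 9 counted members were lower in both niacin libraries, beside 4.2% of genes, and 0 higher, beside 6.1%. These were *Gzmb* (-3.28 and -1.01) and *Eomes* (-1.64 and -1.33). *Gzma* in NK cells differed by -0.62 and -0.67, and by -0.50 and -1.15 without the highest cell of each library.

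UMIs of *Gzma* and *Gzmb* in microglia, which should lack both genes, moved with these differences. Microglia gave 58.7 CPM of *Gzma* in the vehicle library against 3.73 and 1.14 CPM in niacin replicates 1 and 2, and 26.3 CPM of *Gzmb* against 0.339 and 0 CPM. The part of such UMIs in the result was not tested. NK cells were 5.51% of vehicle cells against 0.563% and 0.625% of niacin cells. Without any shared barcode, vehicle and niacin CD8 levels were 1717, 61.4 and 349 CPM for *Gzma* and 1059, 16.7 and 60.8 CPM for *Gzmb*, the latter from 3 UMIs in niacin replicate 1. The NK levels of *Gzma* were then 7024, 8556 and 5337 CPM, so the order of the vehicle library and niacin replicate 1, which keeps 6 NK cells, turned.

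Granzymes were also read in subsets of the vehicle classes. Among vehicle CD4 T cells, 15 with *Foxp3*, the factor of regulatory T cells, held 97 of the 193 *Gzmb* UMIs, or 1346 CPM (1092 to 1642), in 6 cells, and none of *Gzma*, *Prf1* or *Ifng*. The 53 cells without a *Foxp3* UMI held 96 *Gzmb* UMIs (322 CPM, 261 to 393) and all 141 *Gzma* UMIs (472 CPM). A single *Foxp3*-positive cell held 81 of the 97, and without the highest cell of each subset the *Gzmb* levels were 256 and 236 CPM, from 16 and 69 UMIs, so the difference in *Gzmb* rests on that cell. *Foxp3*-positive CD4 T cells numbered 3 and 0 in niacin replicates 1 and 2, so the *Gzmb* level of this subset could not be compared. Cycling CD8 T cells of the vehicle library, 13 cells with *Mki67* or *Top2a*, gave 1139 CPM of *Gzma* against 1436 CPM in the 33 others, with overlapping intervals (932 to 1377 and 1261 to 1630).

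T cells with neither *Cd4* nor *Cd8* UMIs also held granzymes. In the vehicle library 37 of 125 such cells had *Trdc*, *Tcrg-C1* or *Trdv4*, genes of the gamma-delta T cell receptor, and gave 1996 CPM of *Gzma*, 866 CPM of *Gzmb* and 147 CPM of *Prf1*. The other 88 gave 874, 365 and 87.4 CPM, at a median of 2164 UMIs per cell against 5255. In niacin replicates 1 and 2 the cells with these receptor genes numbered 7 each and held no *Gzma* UMI, while the others of this class held 40 and 194. The class was not pure. Its T cell markers summed to 1235 CPM in niacin replicate 1, against 2451 in the vehicle library and 3359 in niacin replicate 2. Choroid plexus markers summed to 86093 CPM and neutrophil markers to 40457 CPM in niacin replicate 1. Whether the cells with these receptor genes are gamma-delta T cells was not tested.

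Across all kept cells, NK cells held 46.4%, 61.7% and 41.1% of the *Gzma* UMIs of the vehicle library, niacin replicate 1 and niacin replicate 2. CD8 T cells held 40.0%, 89.5% and 75.6% of the *Gzmk* UMIs and 23.7%, 60.9% and 53.5% of the *Nkg7* UMIs. For each member 53.3% to 100% of UMIs lay in the CD8 T, CD4 T and NK classes together, and T cells with neither coreceptor held 0% to 38.2%.

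**Figure D4:**
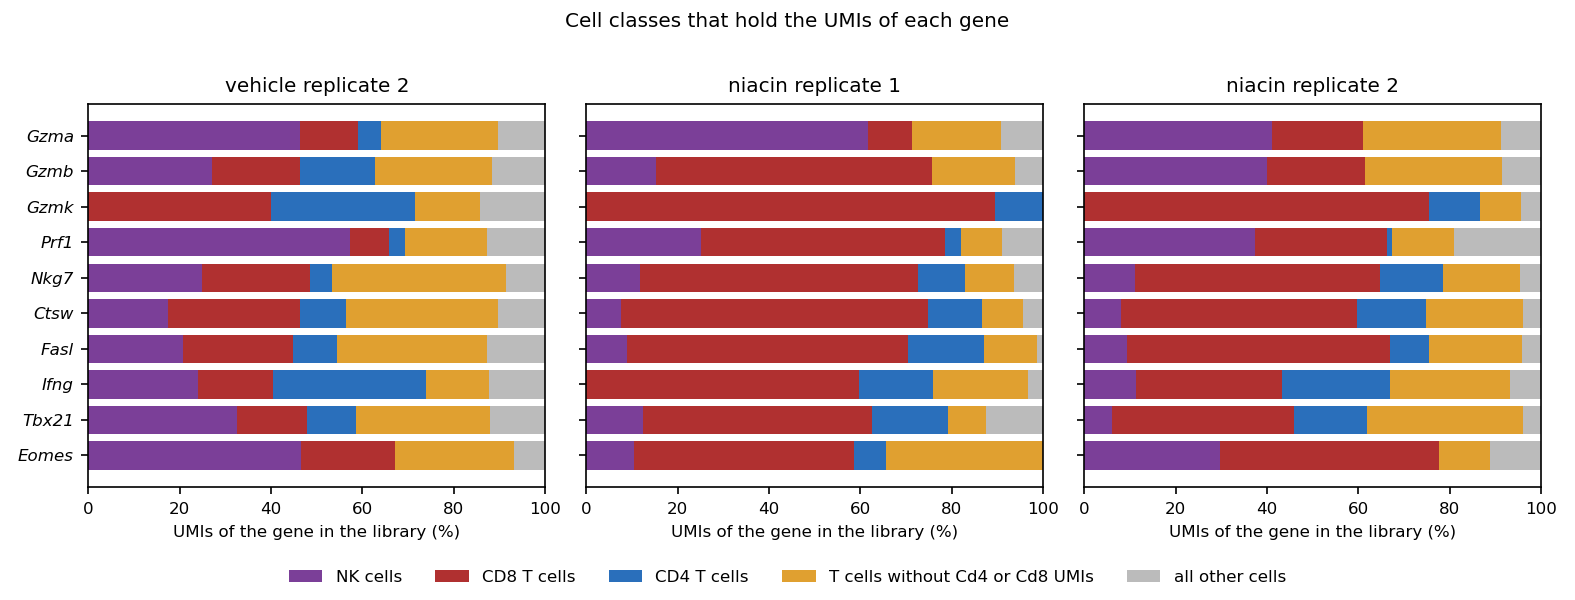
Share of each member's UMIs by cell class (stacked bars from 0 to 100%), 1 bar per library. NK cells hold the most *Gzma* in every library (41.1% to 61.7%) and no *Gzmk*, and CD8 T cells hold the most *Gzmk* in niacin replicates 1 and 2 (89.5% and 75.6%).

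Other genes of the same machinery were taken from 5 lists. Genes that passed the count filter are called measured here. Of 7 other granzymes only *Gzmc*, with 38 UMIs, passed it, while *Gzmm* held 12 UMIs, *Gzmf* 1 and the other 4 none. *Gzmc* was higher in NK cells than in CD8 T cells (log2 5.14, adjusted p = 5.76e-06) and CD4 T cells (4.96, 5.72e-06) by the same edgeR test, Benjamini-Hochberg adjusted. Of 13 measured genes of granule storage and release, 2 were higher in NK than in CD8 T cells, 4 in NK than in CD4 T cells and 1 in CD8 than in CD4 T cells, with 0 called lower (0, 0 and 2 at an unadjusted p below 0.05 in edgeR). Over all genes tested, 3.78%, 4.85% and 1.91% were called higher in these contrasts and 6.32%, 5.82% and 1.89% lower. *Serpinb9*, the inhibitor that shields killer cells from their own granzyme B, was higher in NK cells by 3.25 against CD8 T cells (edgeR adjusted p = 1.5e-12) and by 3.74 against CD4 T cells (2.83e-14). *Serpinb6b*, a related serpin, was higher by 3.79 and 2.53. *Cst7*, an inhibitor of granule cathepsins, was higher in NK (1.47, edgeR adjusted p = 0.00448) and CD8 T cells (1.42, 0.000748) than in CD4 T cells. List medians were 0.11, 0.61 and 0.06 in the contrasts NK against CD8, NK against CD4 and CD8 against CD4, against -0.07, -0.07 and 0.01 over all genes.

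Receptors and factors upstream of the members gave 5 genes higher and 1 lower of 11 measured in NK against CD8 T cells, 6 and 1 against CD4 T cells, and 1 and 1 in CD8 against CD4 T cells. The shares of all genes called higher and lower were 3.78% and 6.32%, 4.85% and 5.82%, and 1.91% and 1.89%. *Zeb2*, which acts with T-bet in effector maturation, was higher in NK cells by 2.96 and 3.13 against CD8 and CD4 T cells. The interleukin receptor subunits *Il2rb* (1.92 and 1.91) and *Il18rap* (2.73 and 2.28) were higher too, and *Tcf7*, the factor of naive and stem-like T cells, was lower (-1.69 and -2.07). *Runx3*, a factor of the CD8 lineage, was higher in CD8 than in CD4 T cells (1.24, edgeR adjusted p = 2.7e-05), and *Il18r1* was lower (-1.69, 1.06e-06). The medians were 1.43, 1.08 and -0.01, against -0.07, -0.07 and 0.01 over all genes.

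Death ligands and chemokines gave 4 of 5 measured genes higher in both NK contrasts and 3 in CD8 against CD4 T cells. Of all genes tested, 3.78% and 4.85% were called higher in the NK contrasts and 1.91% in CD8 against CD4 T cells. *Ccl5* was higher in NK than in CD8 T cells by 0.85 (edgeR adjusted p = 0.00926) and higher in CD8 than in CD4 T cells by 2.61 (9.82e-12). *Xcl1*, which draws cross-presenting dendritic cells and was also among the NK markers checked above, was higher in NK cells by 1.53 and 2.97, *Ccl4* by 1.88 and 3.79 and *Ccl3* by 4.33 and 3.1. List medians were 1.53, 3.1 and 1.44, against -0.07, -0.07 and 0.01 over all genes. Among receptors and transducers of target cells, *Jak2*, a kinase of the interferon gamma receptor, was lower in NK than in CD4 T cells (-1.29, edgeR adjusted p = 0.0313).

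The 5 genes outside the members whose levels followed the member mean most closely were *F2r* (Pearson r = 0.971), *Tcrg-C2* (0.957), *Ctla2a* (0.956), *Sytl3* (0.954) and *Il2rb* (0.953). This was measured on log2(CPM + 10) over 24 sums of 8 classes in 3 libraries, and NK cells were not among them because niacin replicate 1 held fewer than 10. The points share libraries and depth, so the correlation is a description of these sums. The B cell, choroid plexus, neutrophil, microglia and monocyte or macrophage sums held at most 113 CPM of the members. Whether T cell genes in general score as high was not tested. Members themselves ranged from 0.853 for *Gzma* to 0.97 for *Prf1*. Each member is part of that mean, so these values cannot be set beside those of the outside genes.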

How the data were processed

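Single cells of 1 vehicle and 2 niacin pools were measured. The deposited matrices hold UMI counts per gene and barcode, made by the authors with Cell Ranger 3.1 and mm10 per the submitters' notes, not normalized. Cells with at least 200 genes and at most 20% mitochondrial UMIs were kept, as in the study's methods. T cells had at least 1 UMI of *Cd3d*, *Cd3e* or *Cd3g*, split by *Cd8a* or *Cd8b1* against *Cd4*. NK cells had none of these and at least 2 UMIs over *Ncr1*, *Klrb1c*, *Klre1*, *Klra4*, *Klra7*, *Klra8* and *Klra9*. Both had at most 0.5% of UMIs in 11 genes of myeloid and B cells. Scrublet marked 15 of 4344 cells (0.345%) and was not counted as working, so doublets were not removed; an alternative drops the 5% with the highest scores.

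UMIs summed per class and library were tested with edgeR 4.0.16 (R 4.3.3; TMM, filterByExpr, quasi-likelihood test, library term, Benjamini-Hochberg threshold 0.05). Each standard error was derived as the absolute log2 fold change divided by the square root of the F statistic of that test. CPM were computed from the counts with exact Poisson 95% intervals, shares with exact Clopper-Pearson intervals after thinning to 1000 UMIs, and the floor for a count of 0 was 3 counts. Alternatives, 14 in all, included DESeq2 1.42.0, other filters, class rules and barcode rules, and leaving out each library. Leaving out the highest cell of each gene was added after the data were seen. The edgeR script was tested on simulated counts, in the contrast of NK with CD8 T cells. Apart from the changed genes, these counts had the same mean profile in every class and library, and every gene had the same spread. Recovery of genes whose class differences vary between pools was not tested. The edgeR test recovered 4 of 67 genes changed 2-fold, 45 of 67 changed 4-fold and 66 of 66 changed 8-fold. A gene that did not pass at about 2-fold is thus not shown to have equal levels. All 10 members are named, and of each further list at most the 4 genes with the smallest adjusted p in a contrast. The members and lists were chosen with earlier results of these data known. Gene positions come from GENCODE on GRCm38 (mm10), and promoters from RefSeq. Of the list of target cell receptors and transducers, 1 result is not reported here.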

Additional observations from a re-analysis of the deposited data

Results flagged for a closer look

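*Ctsw* in NK cells against CD8 T cells had log2 ratios on either side of 0 in the 2 groups. The log2 ratio was -0.11 in the vehicle library and 0.51 and 0.29 in niacin replicates 1 and 2. The NK values rest on 71, 22 and 43 UMIs. Summed over libraries, the ratio of CPM was 0.944 (counting interval 0.778 to 1.14), an interval that includes equal levels. The difference between the groups was not tested, and with 1 vehicle library the comparison has no spread.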

How the results depend on the processing

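Of 420 log2 fold changes of members recomputed under the alternatives, 383 kept direction and side of the threshold, 19 lost the call, 12 gained it and 6 turned. All 6 that turned had not passed: *Ctsw* in NK against CD8 T cells (0.014 with RLE size factors, 0.0085 with at least 3 NK receptor UMIs, -0.13 to 0.12 with 1 library left out, turned without the vehicle library) and *Ifng* in CD8 against CD4 T cells (-0.073 with every shared barcode left out, -0.062 with at least 2 CD3 UMIs, -0.29 to 0.43 with 1 library left out, turned without niacin replicate 1). Genes called in NK against CD8 T cells numbered 460, against 301 in DESeq2, 147 with no library block, 253 with every shared barcode left out and 230 to 389 with 1 library left out. In NK against CD4 T cells they numbered 486, against 320, 210 with no library block and 231 to 416 with 1 library left out. In CD8 against CD4 T cells they numbered 173, against 59 in DESeq2, 47 with no library block and 100 to 130 with 1 library left out. Members higher in NK than in CD8 T cells were 1 in DESeq2 and 1 with no library block, and those higher in CD8 than in CD4 T cells were 3 with no library block. Members lower in NK than in CD4 T cells were 1 with every gene of at least 1 count, with every barcode kept, with at least 2 CD3 UMIs and with no foreign lineage limit. With every shared barcode left out the members called stayed at 4 and 1, 8 and 0, and 7 and 0 in the 3 contrasts. Between niacin and vehicle, members at least 2-fold higher in CD8 T cells were 1 with at least 2 CD3 UMIs and 1 without the highest cell of each gene (chosen after seeing the data), those higher in CD4 T cells were 2 with every shared barcode left out, and those lower in NK cells were 1 with every shared barcode left out, with no foreign lineage limit and without the highest doublet scores. The median over all genes was -0.28 and -0.25 in the NK contrasts with every gene of at least 1 count, 0.06 and 0.05 in DESeq2, and -0.07 in both as reported. Of 900 shares, 805 moved by less than their counting interval and 95 by more, 38 of these without thinning. The cause of these changes was not tested.

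The library block pairs the classes of 1 pool and is part of the reported test. Niacin and vehicle were not compared in pairs, because the labels pair no vehicle pool with a niacin pool. NK values of niacin replicates 1 and 2 rest on 8 and 10 cells, which limits what depth can show for *Gzmk*, *Ifng*, *Tbx21* and *Eomes* there.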
